A study of Mus musculus with 12 samples.

Results

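The miR-17~92 and miR-106b~25 clusters are a pair of related microRNA (miRNA) loci, and their hairpins were followed here in mouse oocytes. The members are the rows of the deposited small RNA table named for the hairpins of these clusters, taken by name and not by any measured value. There are 9 of them among 2030 small RNA features, of which 1123 are rows named as miRNA hairpins. That count includes Mir17hg_seq, the host transcript of miR-17~92, which is not a hairpin. Mir17_seq, Mir18_seq, Mir19a_seq, Mir20a_seq, Mir19b-1_seq and Mir92-1_seq make up miR-17~92 (6 hairpins), and Mir106b_seq, Mir93_seq and Mir25_seq make up miR-106b~25 (3 hairpins). The ending _seq of the row names is left out from here on. All 9 passed the filter on low values, which asked 4 or more libraries to reach the RPM that 10 reads make at median depth.

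The series compared small RNAs of oocytes taken by hand from the ovaries of mice that had received no hormone stimulation, in 12 libraries of 3 groups with 4 libraries each. Khdc3-null oocytes came from mice without a functional Khdc3 gene, a maternal-effect gene of the oocyte. Descendant oocytes came from mice of wild type genotype that had wild type grandmothers and Khdc3-null grandfathers. Wild type oocytes came from mice of wild type ancestry. The labels give no strain, age, number of oocytes or number of animals, and the series states no allele beyond "Khdc3-null". Whether each library stands for a mouse of its own is not said either, so p-values measure the spread between libraries, which may be technical. The table holds no mRNA, so the loss of Khdc3 could not be checked in these libraries.

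Each cluster is transcribed as a single precursor RNA that the nuclear enzyme Drosha cuts into hairpins and the cytoplasmic enzyme Dicer then cuts into mature miRNAs. A mature miRNA recognises its targets mainly through its seed, bases 2 to 8 counted from 1 at the 5′ end. The clusters are known for promoting cell proliferation and survival: the miR-17 seed family represses the cell cycle inhibitor Cdkn1a, and miR-92a and miR-25 repress the pro-apoptotic gene Bcl2l11. In mouse oocytes the activity of miRNAs on their targets is known to be low in general.

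The main mature form of each hairpin is printed to show which members share a seed, and so which values below belong to the same family of target sites. Sequences are those of RefSeq on build GRCm38.p6, found for 9 of 9 members and printed 5′ to 3′ with the seed in capitals.

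Mir17 (miR-17-5p): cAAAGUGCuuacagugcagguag
Mir20a (miR-20a-5p): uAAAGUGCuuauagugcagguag
Mir106b (miR-106b-5p): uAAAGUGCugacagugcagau
Mir93 (miR-93-5p): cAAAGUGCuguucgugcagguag
Mir18 (miR-18a-5p): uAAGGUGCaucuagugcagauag
Mir19a (miR-19a-3p): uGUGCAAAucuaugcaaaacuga
Mir19b-1 (miR-19b-3p): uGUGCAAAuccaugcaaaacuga
Mir92-1 (miR-92a-3p): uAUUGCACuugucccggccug
Mir25 (miR-25-3p): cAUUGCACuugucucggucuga

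The seed AAAGUGC is shared by 4 members from both clusters, GUGCAAA by Mir19a and Mir19b-1, and AUUGCAC by Mir92-1 and Mir25, while AAGGUGC is that of Mir18. Counted from the 5′ end, miR-17-5p and miR-20a-5p differ by C1U and C12U, miR-19a-3p and miR-19b-3p by U11C, and miR-92a-3p and miR-25-3p by U1C, C14U and C18U over their shared 21 bases. The sequence of miR-19b-3p also lies whole in Mir19b-2 and that of miR-92a-3p in Mir92-2, both hairpins of the X-linked paralog cluster and both in the table. How reads that align to several loci were counted is not given in the sources used here. Values of Mir19b-1 and Mir92-1 are therefore uncertain in their split with these copies. The table gives a value per hairpin and does not say which arm the reads came from.

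On mm10, with GENCODE M21 annotation, the 6 hairpins of miR-17~92 lie on chr14:115043671-115044506, plus strand, a span of 836 bases. All of them fall in an exon of Mir17hg, their non-coding host gene, which GENCODE places at chr14:115042879-115046727 and RefSeq at chr14:115044390-115046728. The RefSeq form holds Mir92-1 whole and none of the other hairpins whole. The 3 hairpins of miR-106b~25 lie on chr5:138165321-138165818, minus strand, a span of 498 bases within introns of 2 transcripts of Mcm7, a subunit of the replicative DNA helicase. Mir93 and Mir25 also lie in an exon of 1 further Mcm7 transcript.

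Levels are in RPM, in which the reads of each row are divided by the mapped reads of the library and multiplied by the same constant. Mapped reads per library ranged from 2918620 to 7640554, and a hairpin without a read could still be at up to 0.393 RPM in the library of most reads and up to 1.03 RPM in that of fewest (3 reads, a limit for counting error only). Khdc3-null replicate 1 stood apart over all features, with a median correlation of 0.918 with the other libraries against 0.946 to 0.961 for the rest. It held 1524 RPM of the liver miRNA Mir122a, against 11.1 to 92.9 RPM elsewhere, and hairpins of tissues absent from the ovary (8 of 10 names in the table) summed to 243 to 1708 RPM in Khdc3-null, 233 to 396 RPM in descendant and 249 to 278 RPM in wild type libraries. Hairpins of ovarian cells other than the oocyte were present throughout: the stroma and vessel list (9 of 11 names in the table, none at 0 in all libraries, led by Mir10b) summed to 10360 to 11969 RPM in Khdc3-null, 7836 to 9184 RPM in descendant and 9993 to 13419 RPM in wild type libraries. The granulosa list (10 of 13 names, led by Mir322) summed to 3809 to 5058, 3536 to 4201 and 3739 to 5109 RPM in Khdc3-null, descendant and wild type libraries. Blood cell hairpins were present as well: the erythrocyte list (3 of 5 names, led by Mir486) summed to 79.1 to 318 RPM in Khdc3-null, 73.7 to 232 RPM in descendant and 87.4 to 105 RPM in wild type libraries. The leukocyte list (6 of 8 names, led by Mir146b) summed to 236 to 382 RPM in Khdc3-null, 171 to 251 RPM in descendant and 215 to 240 RPM in wild type libraries. No hairpin known only from oocytes was on the lists, and in bulk RNA a change in the number of cells of a type cannot be told apart from a change in RNA per cell. The part of attached cells in the levels below was not tested.

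By RPM, the first 3 places and the last were held by the same hairpins in nearly all libraries, while the order of the 5 hairpins between them changed between libraries. Mir106b was the highest of the 9 in 12 of 12 libraries and Mir93 the second in 12 of 12. Mir25 was the third in 11 of 12 libraries, with Mir20a in that place in Khdc3-null replicate 1. Mir19b-1 was the lowest, or equal lowest with Mir92-1 in descendant replicate 1, in 12 of 12. Per 100 bases of hairpin, mean levels over the 12 libraries were 656 RPM for Mir106b, 214 RPM for Mir93 and 106.3 RPM for Mir25. The mature forms printed above are 21 to 23 bases long, so dividing by hairpin length need not make hairpins comparable. On the same scale Mir17 had 60.8 RPM, Mir18 53.1 RPM, Mir20a 43.9 RPM, Mir92-1 37.0 RPM, Mir19a 36.6 RPM and Mir19b-1 13.4 RPM. The ranges over libraries of neighbours in this order overlapped, apart from Mir106b with Mir93 and Mir19a with Mir19b-1. Without division by length, Mir19a (mean 30.0 RPM) stood before Mir92-1 (mean 29.6 RPM). In RPM the 3 hairpins of miR-106b~25 summed to 746 ± 131 in Khdc3-null, 877 ± 80.5 in descendant and 824 ± 26.1 in wild type oocytes (SD, n = 4 each). The 6 hairpins of miR-17~92 summed to 238 ± 28.0, 224 ± 15.2 and 199 ± 20.0 RPM in Khdc3-null, descendant and wild type oocytes (SD, n = 4 each). The smaller cluster thus gave 3.19 ± 0.815, 3.94 ± 0.512 and 4.17 ± 0.449 times the reads of the larger one in these groups (SD, n = 4 each). Among all reads of rows named as miRNA hairpins, with Mir17hg included, miR-106b~25 held 0.511%, 0.608% and 0.555%. On the same scale miR-17~92 held 0.163%, 0.156% and 0.134% (means of 4 libraries in Khdc3-null, descendant and wild type, in both cases).

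**Figure D1:**
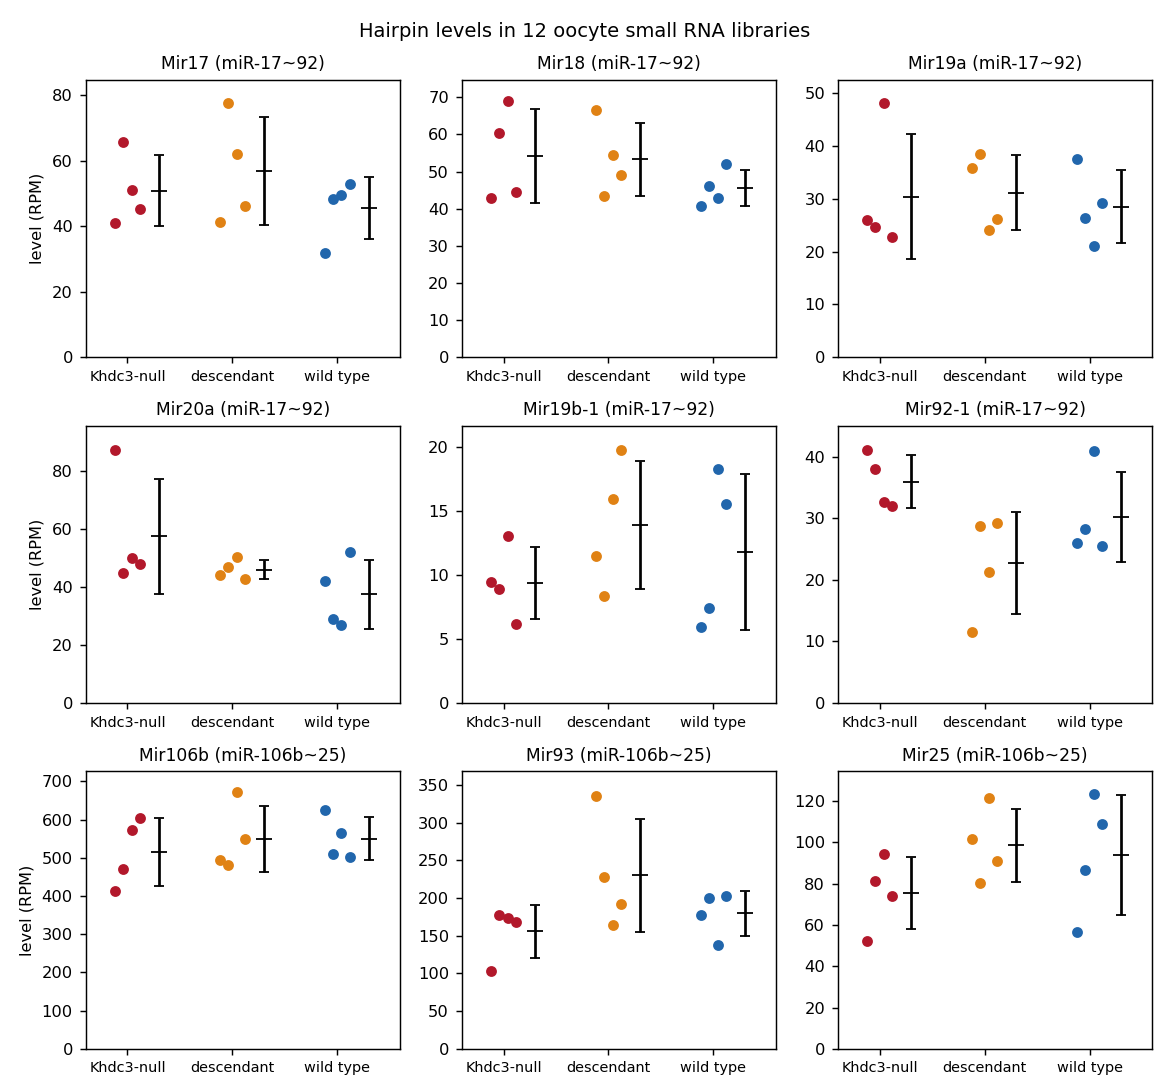
Level of each hairpin in RPM (vertical axes, each starting at 0) in the 4 Khdc3-null, 4 descendant and 4 wild type libraries. Each point is a library, and the black marks and bars give the mean and SD of the group. The groups overlap for every hairpin in every comparison apart from Mir92-1, whose 4 descendant libraries lie below the 4 Khdc3-null libraries.

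Among the members with the seed AAAGUGC, Mir106b, the most abundant, had 412, 469, 572 and 604 RPM in Khdc3-null, 494, 481, 672 and 548 RPM in descendant, and 624, 510, 565 and 501 RPM in wild type libraries. The groups overlapped, and the mean was 514 ± 89.1, 549 ± 87.2 and 550 ± 56.8 RPM (SD, n = 4 each). Mir93, whose mature form has the same seed, had 103, 178, 174 and 169 RPM in Khdc3-null, 336, 228, 165 and 193 RPM in descendant, and 177, 200, 138 and 203 RPM in wild type libraries. Descendant replicate 1 was the highest of the 12 libraries and Khdc3-null replicate 1 the lowest, and the groups overlapped. Mir17, the member that gives the family its name, had 41.0, 65.8, 51.1 and 45.4 RPM in Khdc3-null, 41.4, 77.6, 61.9 and 46.3 RPM in descendant, and 31.8, 48.2, 49.4 and 52.7 RPM in wild type libraries. Its groups overlapped. Mir20a had 87.1, 44.9, 50.0 and 47.7 RPM in Khdc3-null, 44.1, 46.7, 50.4 and 42.7 RPM in descendant, and 42.1, 28.8, 26.9 and 51.9 RPM in wild type libraries. Khdc3-null replicate 1 was far above all other libraries, while the descendant libraries lay close together, with an SD of 3.38 RPM against SDs of 19.9 RPM in the Khdc3-null group and 11.8 RPM in the wild type group.

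Mir18, alone in its seed and known to repress the matrix protein gene Ctgf, had 42.9, 60.3, 69.1 and 44.6 RPM in Khdc3-null, 66.5, 43.5, 54.6 and 49.0 RPM in descendant, and 40.8, 46.2, 43.0 and 52.0 RPM in wild type libraries. The wild type libraries overlapped with the lower part of the range of both other groups. Mir19a, a miR-19 hairpin, had 26.0, 24.7, 48.1 and 22.8 RPM in Khdc3-null, 35.8, 38.5, 24.0 and 26.2 RPM in descendant, and 37.5, 26.3, 21.0 and 29.3 RPM in wild type libraries. Khdc3-null replicate 3 was the highest, and the other 3 Khdc3-null libraries lay within the wild type range. Mir19b-1, the other miR-19 hairpin, had 9.47, 8.91, 13.0 and 6.17 RPM in Khdc3-null, 11.5, 8.38, 15.9 and 19.7 RPM in descendant, and 5.93, 7.39, 18.3 and 15.5 RPM in wild type libraries. It was the least precise member, resting on 26 to 112 reads a library, and its groups overlapped.

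Mir92-1, of the miR-92a and miR-25 seed, had 41.0, 38.0, 32.7 and 31.9 RPM in Khdc3-null, 11.5, 28.8, 21.3 and 29.2 RPM in descendant, and 26.0, 28.3, 41.0 and 25.5 RPM in wild type libraries. Every descendant library lay below every Khdc3-null library, while wild type libraries overlapped with both groups. Mir25, which has the same seed and lies in the other cluster, had 52.3, 81.2, 94.5 and 73.9 RPM in Khdc3-null, 101, 80.2, 122 and 91.1 RPM in descendant, and 56.7, 86.7, 123 and 109 RPM in wild type libraries. Khdc3-null replicate 1 was the lowest library and wild type replicate 3 the highest, with overlap of all groups. In 27 of 27 pairs of member and group the spread between libraries was larger than counting error, 1.22 to 11.8 times as large with a median of 3.97, so counting error is the smaller part of the spread in most of them.

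Khdc3-null oocytes were set against wild type oocytes from mice of wild type ancestry. The labels do not give the ancestry of the Khdc3-null mice, so genotype and ancestry cannot be told apart in this comparison. No member passed the threshold, and neither did any feature (0% of 1889 tested by limma with Benjamini-Hochberg adjustment). The closest was Mir20a, with 57.4 ± 19.9 RPM in Khdc3-null oocytes, against 37.4 ± 11.8 RPM in wild type oocytes (SD, n = 4 each). Its log2 fold change was 0.60 with an SE of 0.26 and a 95% confidence interval of 0.04 to 1.16 (limma, Benjamini-Hochberg adjusted p = 0.945). Without Khdc3-null replicate 1, the library high in Mir20a, the log2 fold change was 0.39. At an unadjusted p under 0.05, 1 of 9 members passed, against 5.03% of all features. With limma-voom on reads 0 of 9 passed, against 76 of 1889 features. The limma count was 0 of 9 without Khdc3-null replicate 1, wild type replicate 2 or wild type replicate 3. Over all features these fits gave 125, 63 and 72 of 1889. With only the 2 groups compared in the fit the member count was 0 of 9 as well, against 108 of 1889 features. Without wild type replicate 1 it was 2 of 9, against 103 of 1889 features. No member had groups that did not overlap, against 3.18% of all features. Log2 fold changes were above 0 for 5 of 9 members, against 40.7% of all features, with a median of 0.05 against -0.05. By cluster, 5 of 6 hairpins of miR-17~92 and 0 of 3 of miR-106b~25 were above 0. The estimates of miR-106b~25 were -0.11 for Mir106b, -0.22 for Mir93 and -0.28 for Mir25, and without Khdc3-null replicate 1 they were nearer to 0, at -0.01, -0.03 and -0.12.

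Descendant against wild type oocytes addressed the ancestry at equal genotype, and shares its wild type libraries with the comparison above. No member passed, and neither did any feature (0% of 1889 tested by limma with Benjamini-Hochberg adjustment). At an unadjusted p under 0.05, no member passed with limma, against 4.08% of all features, or with limma-voom, against 87 of 1889 features. No member had groups that did not overlap, against 2.75% of all features. Mir93 averaged 230 ± 74.8 RPM in descendant and 180 ± 30.1 RPM in wild type oocytes (SD, n = 4 each), a log2 fold change of 0.32 with a 95% confidence interval of -0.17 to 0.81 (limma, Benjamini-Hochberg adjusted p = 0.946). Without descendant replicate 1 it was 0.12. Mir92-1 averaged 22.7 ± 8.32 RPM in descendant and 30.2 ± 7.29 RPM in wild type oocytes (SD, n = 4 each), with a log2 fold change of -0.45 and an interval of -1.09 to 0.18, and of -0.17 without descendant replicate 1. Mir106b had the narrowest interval, -0.32 to 0.30 around -0.01, and its sign depended on the scaling. Log2 fold changes were above 0 for 7 of 9 members, against 45.9% of all features, with a median of 0.21 against -0.02. These were 5 of 6 hairpins of miR-17~92 and 2 of 3 of miR-106b~25. The stroma and vessel sums given above lay lower in every descendant library than in every wild type library, and their part in these values was not tested.

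Descendant oocytes were also set against Khdc3-null oocytes, where again genotype and ancestry cannot be told apart, and the comparison shares both groups with the comparisons above. No member passed the adjusted threshold (0% of 1889 features by limma with Benjamini-Hochberg adjustment), and 2 of 9 passed at an unadjusted p under 0.05, against 6.41% of all features. limma-voom gave 2 of 9 as well, against 132 of 1889 features. The limma count was 0 of 9 without Khdc3-null replicate 1, against 142 of 1889 features, and 0 of 9 without descendant replicate 1, against 101. It was 1 of 9 without Khdc3-null replicate 2, against 124 of 1889 features, and 1 of 9 without descendant replicate 2, against 109. Mir92-1 averaged 22.7 ± 8.32 RPM in descendant and 35.9 ± 4.34 RPM in Khdc3-null oocytes (SD, n = 4 each). Its log2 fold change was -0.72, with an SE of 0.30 and a 95% confidence interval of -1.35 to -0.08 (limma, Benjamini-Hochberg adjusted p = 0.722). Mir92-1 was the 1 member whose groups did not overlap, against 3.02% of all features. Without descendant replicate 1, the library with 11.5 RPM, its log2 fold change was -0.43. Mir93 averaged 230 ± 74.8 RPM in descendant and 156 ± 35.6 RPM in Khdc3-null oocytes (SD, n = 4 each). Its log2 fold change was 0.54, with an SE of 0.23 and an interval of 0.05 to 1.03 (limma, Benjamini-Hochberg adjusted p = 0.722), and without descendant replicate 1 it was 0.35. These members, named for their p, lie in different clusters and have different seeds. Log2 fold changes were above 0 for 6 of 9 members, against 56.8% of all features, with a median of 0.10 against 0.05. They were above 0 for 3 of 3 hairpins of miR-106b~25 and 3 of 6 of miR-17~92. The stroma and vessel sums given above also differ between these groups without overlap, and their part in these values was not tested.

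**Figure D2:**
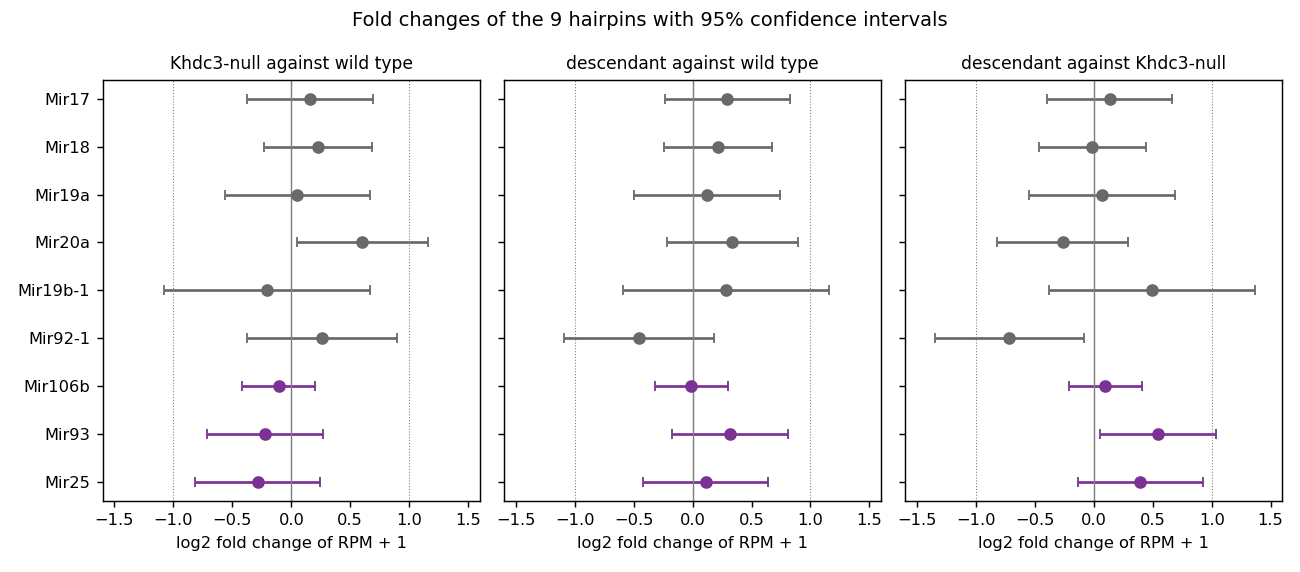
Log2 fold change of RPM + 1 (horizontal axes) for the 9 hairpins (rows; miR-17~92 in grey, miR-106b~25 in purple) in the 3 comparisons, with 95% confidence intervals from limma. Dotted lines mark a 2-fold change, and the intervals leave out 0 only for Mir20a in Khdc3-null against wild type and for Mir92-1 and Mir93 in descendant against Khdc3-null.

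With 4 libraries a group, the intervals show how large a difference could have been missed. The 95% confidence interval left out a 2-fold change in both directions for 7 of 9 members in Khdc3-null against wild type, 7 of 9 in descendant against wild type and 6 of 9 in descendant against Khdc3-null. The same held for 56.2%, 55.1% and 54.3% of all features in these comparisons. Mir19b-1 had the widest interval in all 3, for example -0.38 to 1.37 in descendant against Khdc3-null. A test of any difference among the 3 groups called no member (0% of 1889 features called by the limma F test with Benjamini-Hochberg adjustment, 4.92% at an unadjusted p under 0.05, none of them a member). The lowest adjusted p of a member in that test was 0.901.

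The signs were also mixed within families of shared seed. Of the 4 members with the seed AAAGUGC, 2 had log2 fold changes above 0 in Khdc3-null against wild type, 3 in descendant against wild type and 3 in descendant against Khdc3-null. Mir92-1 and Mir25, with the seed AUUGCAC, had opposite signs in all 3 comparisons, a difference that was not tested. For the copies of miR-92a-3p, Mir92-1 and Mir92-2 summed to 66.3 ± 15.6 RPM in Khdc3-null, 41.4 ± 10.4 RPM in descendant and 60.1 ± 11.5 RPM in wild type oocytes (SD, n = 4 each). With this sum in place of Mir92-1, a setting chosen after the data were seen, the log2 fold change was -0.68 in descendant against Khdc3-null (limma, Benjamini-Hochberg adjusted p = 0.720) and -0.55 in descendant against wild type (limma, Benjamini-Hochberg adjusted p = 0.946). In this setting 1 of 9 members passed at an unadjusted p under 0.05 in descendant against wild type, where 78 of 1887 features did. In the limma F test 1 of 9 members passed unadjusted as well, for which no count over all features is given here. The main fit gave 0 of 9 members in both, where 4.08% and 4.92% of all features passed. The descendant sums, 26.9 to 51.3 RPM, lay below the Khdc3-null sums of 52.6 to 85.0 RPM. Without summing, 3.02% of all features had groups that did not overlap in this comparison. The descendant sums overlapped with the wild type sums of 46.6 to 72.6 RPM.

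The paralog cluster on the X chromosome, whose 6 hairpins Mir106a, Mir18b, Mir20b, Mir19b-2, Mir92-2 and Mir363 carry the same seeds, lay below miR-106b~25 and, apart from Mir19b-1, below every hairpin of miR-17~92 in mean level per 100 hairpin bases. All 6 were in the table and past the filter, and on that scale their means ran from 7.77 RPM for Mir19b-2 to 28.9 RPM for Mir92-2. The adjusted test called 0 of 6 in any comparison, and 0 of 6 passed at an unadjusted p under 0.05. Log2 fold changes were above 0 for 4 of 6 in Khdc3-null against wild type, 4 of 6 in descendant against wild type and 2 of 6 in descendant against Khdc3-null. Mir92-2 had 13.2, 35.3, 52.3 and 20.7 RPM in Khdc3-null, 15.4, 16.5, 20.6 and 22.1 RPM in descendant, and 20.5, 37.7, 31.6 and 29.6 RPM in wild type libraries, with overlap of all groups. Mir18b averaged 26.8 ± 10.9, 20.9 ± 6.29 and 18.3 ± 2.94 RPM and Mir363 averaged 12.8 ± 3.48, 10.1 ± 6.15 and 12.1 ± 5.76 RPM in Khdc3-null, descendant and wild type oocytes (SD, n = 4 each). Outside these clusters, 4 hairpins have a mature form with a member's seed: Mir32, Mir367, Mir92b and Mir6383. None was called in any comparison, adjusted or not. Mir6383 averaged 61.0 ± 16.1 RPM in Khdc3-null, 66.3 ± 22.7 RPM in descendant and 60.5 ± 10.3 RPM in wild type oocytes (SD, n = 4 each), and Mir92b averaged 12.4 ± 1.30, 10.3 ± 3.44 and 11.6 ± 2.03 RPM in these groups (SD, n = 4 each).

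The Mir17hg row, the host transcript of miR-17~92, had 442, 555, 541 and 538 RPM in Khdc3-null, 483, 444, 566 and 494 RPM in descendant, and 598, 530, 522 and 476 RPM in wild type libraries. The groups overlapped, and the log2 fold change was -0.03 in Khdc3-null against wild type, -0.10 in descendant against wild type and -0.06 in descendant against Khdc3-null. The row held 2.21 ± 0.392, 2.23 ± 0.283 and 2.71 ± 0.481 times the summed reads of its 6 hairpins in Khdc3-null, descendant and wild type oocytes (SD, n = 4 each). Either annotated form of Mir17hg spans more bases than the hairpins, and length was not corrected for, so this is a ratio of reads and not of molecules. Which form of Mir17hg was counted, and whether reads of the hairpins were counted in this row as well, is not given in the sources used here. Over the 12 libraries the mean log2 level of the 6 hairpins had a Pearson r of -0.33 and a Spearman rho of -0.37 with the host row. Khdc3-null replicate 1 was the lowest library in the host row, and r without it was not computed.

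**Figure D3:**
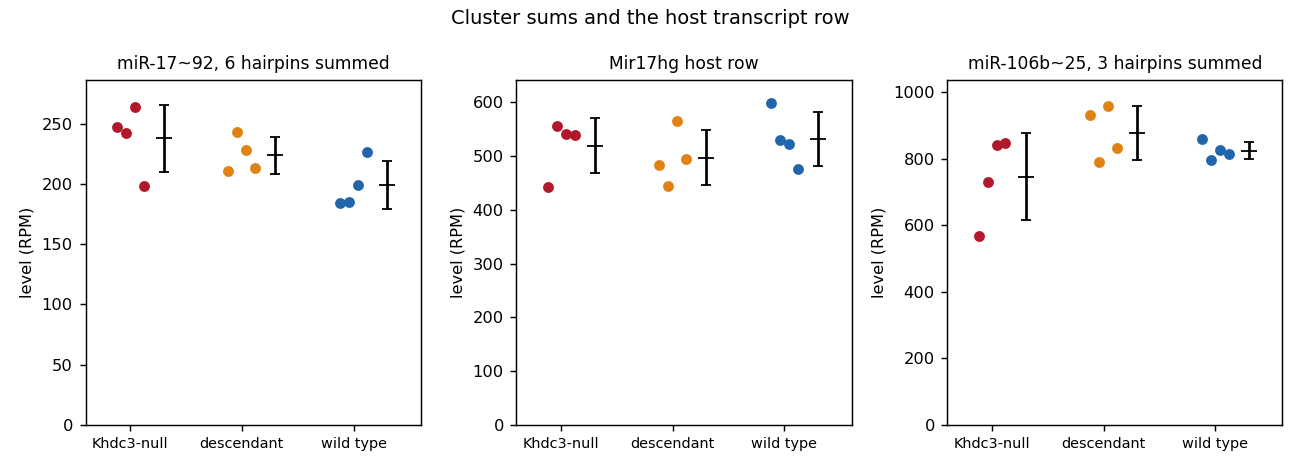
Sum of the 6 miR-17~92 hairpins, level of the Mir17hg host row and sum of the 3 miR-106b~25 hairpins, in RPM (vertical axes, each starting at 0), in the 4 Khdc3-null, 4 descendant and 4 wild type libraries. Points are libraries, and black marks and bars are the mean and SD. The groups overlap in every panel, and the wild type sums of miR-106b~25 lie closest together, from 797 to 858 RPM.

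How far the hairpins vary together over libraries was described for each pair. Over 36 pairs of members, Pearson r of log2(RPM + 1) over the 12 libraries had a median of 0.07 for the 18 pairs within a cluster, with a range of -0.43 to 0.38, and of -0.03 for the 18 pairs across clusters, with a range of -0.81 to 0.73. Within miR-106b~25, r was 0.04 for Mir106b with Mir93, 0.34 for Mir106b with Mir25 and 0.34 for Mir93 with Mir25. No pair passed after Benjamini-Hochberg adjustment over the 36 pairs. Before it, 2 pairs passed by Pearson r and 3 by Spearman rho, all across clusters, the pair by rho alone being Mir19a with Mir93 (rho = 0.59, permutation p = 0.0447, adjusted 0.536). Mir92-1 and Mir93 had r = -0.81 and Spearman rho = -0.61 (permutation p = 0.00281 for r and 0.0406 for rho, adjusted 0.101 and 0.536). Descendant replicate 1 was the highest library in Mir93 and the lowest in Mir92-1, and Khdc3-null replicate 1 was the lowest in Mir93 and, by a narrow margin, the highest in Mir92-1. Without the 2 libraries farthest from the median of Mir92-1, r was -0.41, and with the group means removed it was -0.70. With RPM rescaled to the miRNA total, r was -0.76 over all libraries and -0.77 without the 2 libraries farthest from the median on that scale. Those need not be the same 2 libraries as in RPM, so the values do not show an effect of the scaling itself. In RPM without Khdc3-null replicate 1, r was -0.82. It was -0.014 when the 2 libraries then farthest from the median were left out as well. Mir19b-1 and Mir25 had r = 0.73 and rho = 0.76 (permutation p = 0.00694 for r and 0.00562 for rho, adjusted 0.125 and 0.202). Without the 2 libraries farthest from the median of Mir19b-1, r was 0.74, and with the group means removed it was 0.69.

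**Figure D4:**
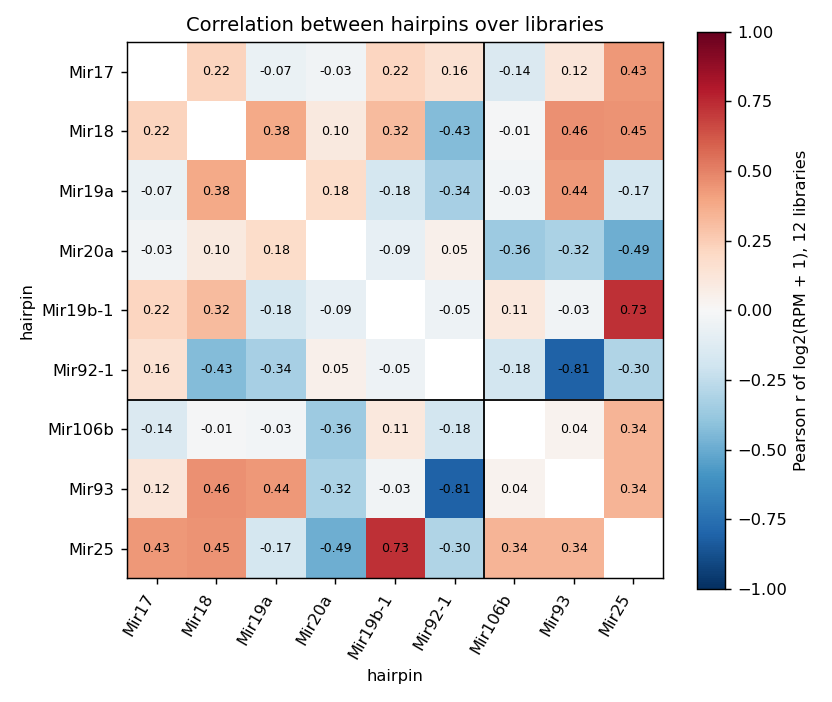
Pearson r of log2(RPM + 1) over the 12 libraries for each pair of the 9 hairpins (both axes), with black lines between miR-17~92 (Mir17 to Mir92-1) and miR-106b~25 (Mir106b to Mir25). Red is positive and blue negative, and the extreme pairs, Mir92-1 with Mir93 (-0.81) and Mir19b-1 with Mir25 (0.73), lie across clusters.

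The features most like each cluster, by Pearson r with the mean log2 level of its members over the 12 libraries among features averaging at least 100 RPM, were ranked as a description. For miR-17~92 these were Mir298 (r = 0.73), Mir183 (0.71), Mir15b (0.69), Mir486 (0.65) and Mir182 (0.59), the highest of 561, and without Khdc3-null replicate 1 they were between 0.70 and 0.73. Mir486 is also the leading hairpin of the erythrocyte list, with 249.6 RPM in Khdc3-null replicate 1 against 62.0 to 178 RPM in the other libraries, and the part of blood cells in this likeness was not tested. For miR-106b~25 these were the piRNA locus pi-Ndst1.1 (r = 0.94), Mir3070b (0.85), Mir6927 (0.82), the piRNA locus pi-Cbl.1 (0.81) and Mir3569 (0.81), the highest of 559. Without Khdc3-null replicate 1 these were 0.78, 0.59, 0.45, 0.77 and 0.28 in that order, so that the likeness of Mir6927 and Mir3569 rests largely on this library.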

How the data were processed

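The authors deposited a table in RPM, reads per mapped read times a constant, and each value has 1 added to it. Reads were aligned to mm10 with Bowtie2, per the submitters' processing notes. The version, the counting rule and the handling of reads with several alignments are not given in the sources used here. After 1 was subtracted, 100% of values were whole reads within 0.01 reads, which gave the mapped reads per library. Features reaching 1.61 RPM in at least 4 libraries were kept (1889 of 2030). All 12 libraries were fitted with 3 group means in limma 3.58.1 (R 4.3.3, variance trend) on log2(RPM + 1), adjusting p over 1889 features (threshold 0.05). Fold changes refer to RPM + 1 and understate changes of scarce hairpins. Count models planned for tables of reads (edgeR, DESeq2) were not run on these normalised values, and limma-voom on the recovered reads was used. Correlations had two-sided permutation p from 100000 resamples. The script for the fit was tested on simulated data. The rule for names took every member in each library, hairpins averaging 10 RPM or more of the paralog cluster and of other loci with a member's seed, the highest marker of a list, and the 5 features most like each cluster. The written plan named 7 members, but its rule finds 9, all of which were used. Members and lists were chosen with earlier results of these data known.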

Additional observations from a re-analysis of the deposited data

Results flagged for a closer look

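Of 30 groups of 4 libraries checked (the 9 hairpins and Mir17hg in 3 groups), 4 held a library far from the others of its group, a gap of which chance alone marks about 1 in 20 groups. Khdc3-null replicate 1 was that library in 3 of the 4. Mir20a had 87.1 RPM there, against 44.9 to 50.0 RPM in the other Khdc3-null libraries. Mir93 had 103 RPM in it, against 169 to 178 RPM, and Mir17hg had 442 RPM, against 538 to 555 RPM. Mir19a had 48.1 RPM in Khdc3-null replicate 3, against 22.8 to 26.0 RPM in the other Khdc3-null libraries.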

How the results depend on the processing

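Over 11 other settings and the leaving out of each of 12 libraries, no member passed the adjusted threshold in any comparison, and the lowest adjusted p of a member was 0.576. The settings were other pseudocounts (0.25 and 4 RPM), no filter or one of 10 RPM, median-of-ratios, TMM and miRNA-total scaling, limma-voom, fits of 2 groups, and, chosen after the data were seen, summed copies and miRNA rows alone. Of 600 single log2 fold changes, 24 turned sign, 21 of them when a library was left out, and none of these passed before or after. Otherwise Mir18 in descendant against Khdc3-null was 0.0093 with the miRNA total (-0.011 before), and Mir106b in descendant against wild type was 0.017 with median-of-ratios and 0.035 with the miRNA total (-0.011 before). The cause was not tested. Leaving out a library turned 10 of 27 values. In Khdc3-null against wild type these ran from -0.00076 to 0.25 for Mir17, -0.18 to 0.19 for Mir19a and -0.46 to 0.033 for Mir19b-1. In descendant against wild type they ran from -0.0071 to 0.26 for Mir19a, -0.11 to 0.052 for Mir106b and -0.11 to 0.26 for Mir25. In descendant against Khdc3-null they ran from -0.025 to 0.27 for Mir17, -0.12 to 0.11 for Mir18, -0.040 to 0.31 for Mir19a and -0.0049 to 0.18 for Mir106b. Without Khdc3-null replicate 1, 1 of 36 pairs of members passed the adjusted threshold, against 0 with all libraries (Mir19b-1 with Mir25, r = 0.83, permutation p adjusted to 0.0317), and 1 feature that is no member passed in Khdc3-null against wild type. No paired analysis was possible because the labels give the libraries no replicate numbers shared between groups. Depth limits Mir19b-1 most, at 26 to 112 reads a library.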
